A study of Mus musculus with 6 samples.

Results

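The pyruvate dehydrogenase complex and the enzymes that switch it on and off were followed by 10 genes, namely the kinases Pdk1, Pdk2, Pdk3 and Pdk4, the phosphatases Pdp1 and Pdp2, and the subunits Pdha1, Pdhb, Dlat and Pdhx. They were chosen by name and found through their Ensembl identifiers among the 55416 genes of the deposited table, and all 10 had enough counts to be tested. Small intestinal crypt organoids, which are three-dimensional epithelial cultures grown from the stem cells of the crypts, were made from the duodenum and jejunum of 3 mice of the strain C57BL/6 with the genotype label WT. Organoids of each mouse were given either low-density lipoprotein (LDL, 50 μg/ml) or PBS as control for 5 days, which gave 3 LDL-treated and 3 PBS-treated RNA-Seq libraries. The age and sex of the animals are not given in the sources used here. Each mouse contributed 1 library to each treatment, so the replicate number is the mouse, and organoids hold epithelium without the stroma, vessels and immune cells of the intestine.

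Pyruvate dehydrogenase is the mitochondrial complex that turns pyruvate, the end product of glycolysis, into acetyl-CoA for the citric acid cycle. Its E1 component, built from the products of Pdha1 and Pdhb, decarboxylates pyruvate with thiamine pyrophosphate. E2 (Dlat) passes the acetyl group to coenzyme A on a lipoyl arm, and E3 (Dld), held in place by the E3-binding protein (Pdhx), reoxidizes that arm. The Pdk kinases phosphorylate E1 alpha and stop the complex, whereas the Pdp phosphatases remove the phosphate and restore it. Pdk4 is known as the kinase gene that responds to fasting and fatty acids in muscle, heart and liver, and Pdk1 as a target of the hypoxia-inducible factor.

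Between 22061545 and 31073360 reads per library fell on genes. The LDL-treated library of mouse 1 stood apart, with reads on 35781 genes against 29285 to 32751 in the other 5 libraries, and with 7.62% of its normalized counts on the ribosomal RNA gene Rn18s-rs5. Markers of epithelium (Epcam, Cdh1, Krt8 and Krt20) summed to 61431 to 81105 normalized counts with LDL and 55606 to 57955 with PBS, and Krt8 and Krt20 were called higher with LDL when the mouse was a block in limma and in DESeq2. Those of fat, a tissue known for high Pdk4, summed to 1.67 to 6.10 with LDL and 1.02 to 3.26 with PBS over 3 genes, with Adipoq at 0 in every library. Those of muscle summed to 22.7 to 72.0 with LDL and 23.6 to 62.3 with PBS over 4 genes, those of stroma to 3.64 to 31.7 and 4.97 to 12.2 over 5 genes, and those of immune cells to 21.8 to 40.2 and 18.7 to 32.7 over 4 genes. Within the epithelium, 5 goblet cell markers summed to 27632 to 34173 with LDL and 48494 to 53750 with PBS, with Fcgbp and Spink4 called lower and Clca1 called higher with LDL (log2 fold change 2.81, limma). The sum of 7 enterocyte markers was 28116 to 52562 with LDL and 23254 to 43519 with PBS. Of these, Alpi was called higher with LDL (log2 fold change 2.13, limma). With the mouse as a block, limma also called Apoa4 and Fabp2 higher and Lct lower. Markers of stem cells (5 genes) summed to 11315 to 18031 with LDL and 16112 to 31177 with PBS, although 3 of the 5 had higher fitted levels with LDL (median log2 fold change 0.23). Markers of Paneth cells (5) summed to 11853 to 13400 with LDL and 13573 to 21839 with PBS, those of enteroendocrine cells (6) to 7272 to 11716 and 9475 to 14908, and those of tuft cells (4) to 186 to 493 and 239 to 337. The part of these cell types in the results was not tested, and in bulk RNA fewer cells of a type cannot be told apart from less RNA per cell.

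Of the 10 genes, Pdk4 alone rose past the threshold and none fell past it in the comparison of LDL with PBS. Calls needed both an adjusted p under 0.05 in limma, fitted across 18459 genes, and more than a 1.5-fold difference, a rule that called 0.878% of all genes higher and 0.395% lower with LDL. When the mouse was added to the model as a block, the rule called 5.68% of all genes higher and 3.46% lower, and Pdk4 was again the single member called. At any fold, an adjusted p under 0.05 was reached with that block by 8.27% of all genes on the higher side and 7.45% on the lower side, and among the members by Pdk4 and Pdp1 (higher) and by Pdk2 and Pdha1 (lower). The other members had an adjusted p with the block of 0.306 (Pdk1), 0.126 (Pdk3), 0.0531 (Pdp2), 0.360 (Pdhb), 0.503 (Dlat) and 0.141 (Pdhx) in limma. Among the 10 members 2 had higher and 8 had lower fitted levels with LDL, against 8789 higher and 9670 lower of the 18459 genes tested. The median log2 fold change of the members was -0.23, against -0.02 over all genes tested. No member passed the fold threshold on the lower side at an unadjusted p under 0.05 either, and DESeq2 and edgeR called 0 members lower with and without the block.

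**Figure D1:**
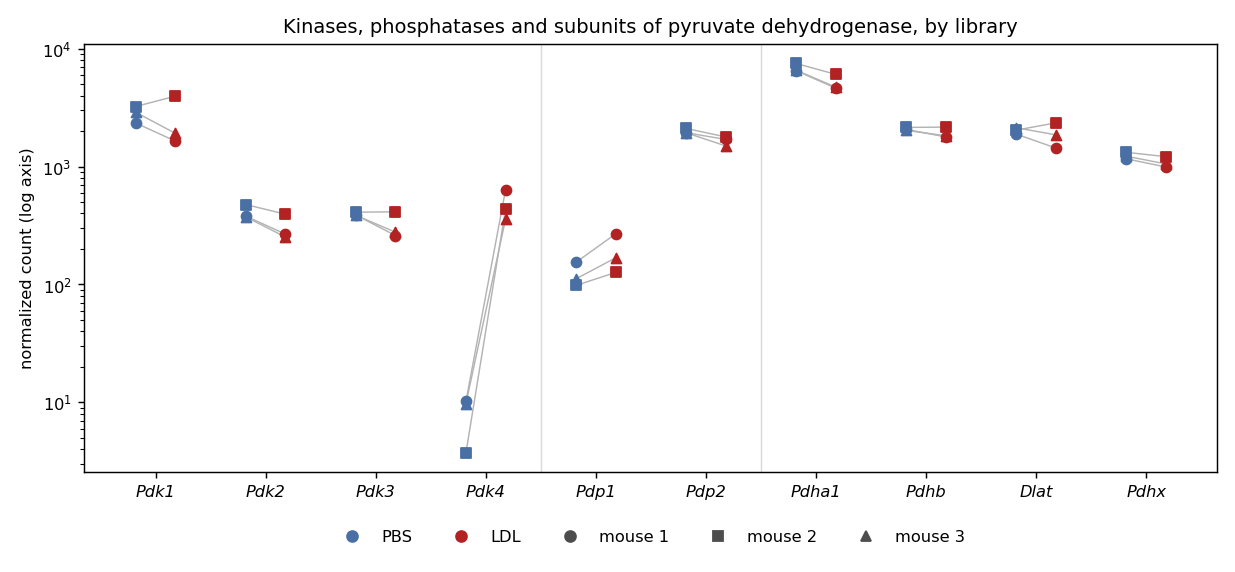
Normalized counts (log axis) of the 10 genes in each of the 6 libraries, with PBS and LDL in separate colors and a marker shape for each mouse. Pdk4 lies between 3.73 and 10.2 with PBS and between 358 and 633 with LDL, while for the other genes the treatments lie within 2-fold of each other in every mouse.

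Pdk4 (ENSMUSG00000019577, chr6:5483097-5496339, minus strand, GRCm39) had 10.2, 3.73 and 9.77 normalized counts with PBS in mice 1, 2 and 3, and 633, 435 and 358 with LDL. The groups were far apart in every mouse, and the PBS values rested on 10, 3 and 12 reads while the LDL values rested on 519, 478 and 428 reads. LDL-treated organoids had a mean of 475 ± 142 and PBS-treated organoids one of 7.90 ± 3.62 (SD, n = 3 each). The log2 fold change was 5.80 (SE 0.38, 95% interval 4.92 to 6.68), on the scale of log2 of the normalized count plus 1 and with an adjusted p = 0.00111 (limma). This was the third highest log2 fold change of the 18459 genes tested. Within each mouse the ratio of LDL to PBS was 62.0 (95% interval 33.4 to 130), 117 (39.7 to 567) and 36.6 (20.8 to 71.5), with exact intervals that cover counting error only. These intervals overlap, so the counts do not order the 3 mice. No annotated gene overlaps Pdk4. With the LDL-treated library of mouse 1 left out, the log2 fold change was 5.58 (adjusted p = 0.00395, limma). Without both libraries of mouse 3 it was 6.17 and missed the threshold (adjusted p = 0.174, limma), in a fit of 2 libraries against 2 that called 0 genes in either direction, with 602 higher and 392 lower at an unadjusted p under 0.05 and more than 1.5-fold. With the mouse as a block that pair of mice gave an adjusted p = 0.00191 (limma).

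The promoters of Pdk4 and Pdk1 are shown because these are the kinase gene that rose and the most abundant kinase gene. Each run is the 250 bases before the start of the canonical transcript, read 5′ to 3′ on the strand of the gene from GRCm39, at chr6:5496331-5496580 (minus strand) for Pdk4 and chr2:71703238-71703487 (plus strand) for Pdk1. Capitals mark the match to a motif named after the runs.
Pdk4: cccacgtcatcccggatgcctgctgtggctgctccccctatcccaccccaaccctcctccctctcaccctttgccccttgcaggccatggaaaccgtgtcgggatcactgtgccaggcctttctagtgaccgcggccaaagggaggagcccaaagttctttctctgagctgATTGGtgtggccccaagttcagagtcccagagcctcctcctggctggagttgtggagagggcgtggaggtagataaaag
Pdk1: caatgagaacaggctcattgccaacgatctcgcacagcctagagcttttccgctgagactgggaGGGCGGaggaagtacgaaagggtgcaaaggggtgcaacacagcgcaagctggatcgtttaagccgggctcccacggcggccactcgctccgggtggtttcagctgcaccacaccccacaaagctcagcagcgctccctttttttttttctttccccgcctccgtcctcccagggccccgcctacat
A set of letter strings was searched on both strands. The Pdk4 window held 1 CCAAT box (CCAAT), read on the other strand from 79 to 75 bases before the start, a string found in 36.5% of the 21770 windows of coding genes. The Pdk1 window held 1 GC box (GGGCGG) from 186 to 181 bases before the start, found in 36.3% of windows. Neither window held the nuclear receptor half-site AGGTCA (13.1% of windows), its direct repeat AGGTCANAGGTCA, to which receptors of the PPAR family are known to bind (0.0367%, 8 windows), the forkhead string TGTTTAC (2.72%) or the TATA box TATAAA (11.9%). The Pdk4 window held 7 CpG and the Pdk1 window 16, against a median of 8. A match is only a string of letters, and elements outside these windows were not searched.

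Pdk1 (chr2:71703488-71734202, plus strand) had 2339, 3228 and 2884 normalized counts with PBS and 1643, 3952 and 1912 with LDL in mice 1, 2 and 3. The LDL-treated values lay below and above all PBS values, lower in mice 1 and 3 and higher in mouse 2. The log2 fold change was -0.27 (SE 0.31, 95% interval -0.98 to 0.44, adjusted p = 0.683, limma).

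Pdk2 (chr11:94914929-94932242, minus strand), the kinase gene of broad tissue expression, had 380, 476 and 374 normalized counts with PBS and 267, 395 and 253 with LDL. The value with LDL was lower in 3 of 3 mice, but that of mouse 2 with LDL lay above the PBS values of mice 1 and 3. Its log2 fold change was -0.45 (SE 0.19, adjusted p = 0.255, limma), and with the mouse as a block the adjusted p was 0.0293 at a change under 1.5-fold. Pdk3 (chrX:92789513-92876389, minus strand) had 388, 410 and 386 normalized counts with PBS and 260, 413 and 278 with LDL, which gave a log2 fold change of -0.35 (SE 0.18, adjusted p = 0.337, limma). For all 3 of these kinase genes mouse 2 had the highest value within each treatment, and its ratio of LDL to PBS, at 1.22, 0.829 and 1.01, was higher than in the other mice. Without the LDL-treated library of mouse 2, Pdk1 (log2 fold change -0.66, adjusted p = 0.0179) and Pdk2 (-0.65, adjusted p = 0.0219) were called lower by limma, so that 1 library decided both calls. That fit also called 1194 genes higher and 1137 lower over all genes.

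The makeup of the kinase transcripts was compared on normalized counts per kb of merged exons, where a share is the level of 1 gene over the sum of the 4 kinase genes. Pdk4 made up 0.748%, 0.208% and 0.613% of the kinase level with PBS in mice 1, 2 and 3, and 40.1%, 17.4% and 25.2% with LDL. The share of Pdk4 was thus 0.523% ± 0.281 with PBS and 27.6% ± 11.5 with LDL (SD, n = 3 each). Merged exons count every annotated exon, and by the length of the canonical transcript the shares of Pdk4 were 0.251% ± 0.133 with PBS and 15.9% ± 7.38 with LDL. Pdk4 was the least abundant of the 4 in every PBS library by either length. With LDL it ranked 2 of 4 in each library by merged exons, and by canonical transcripts 2 in mouse 1 and 4 in mice 2 and 3. Pdk1 held the highest share in all 6 libraries, at 76.4% ± 2.24 with PBS and 57.0% ± 11.6 with LDL by merged exons. The summed kinase level was 417 ± 56.6 normalized counts per kb with PBS and 483 ± 154 with LDL, and without Pdk4 it was 415 ± 57.5 and 358 ± 162 (SD, n = 3 each). The sums overlapped between the treatments with and without Pdk4.

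**Figure D2:**
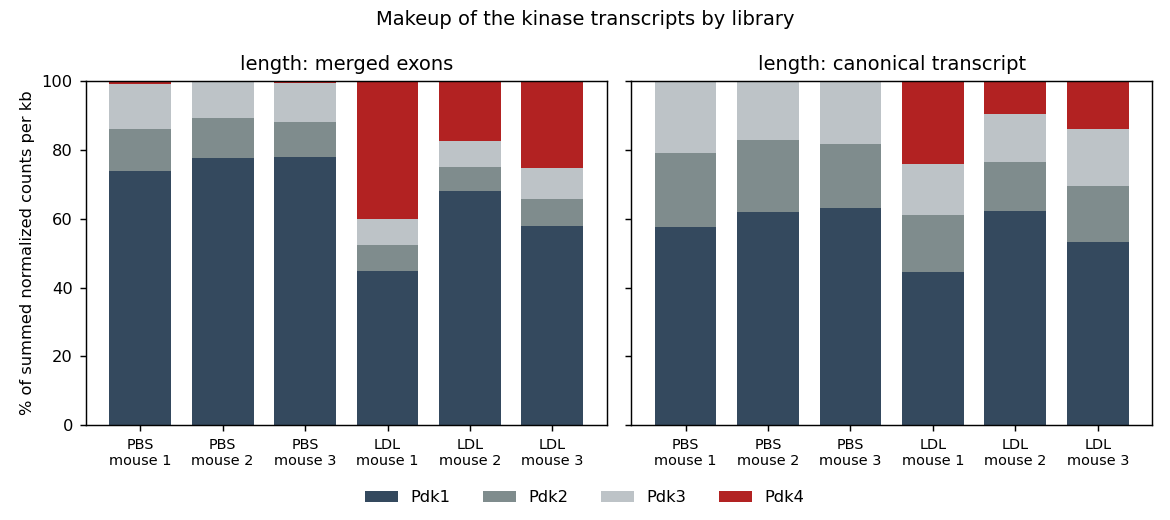
Share of each kinase gene in the summed normalized counts per kb of the 4 kinase genes (% on the y axis), as 1 stacked bar per library, with gene length taken from merged exons (left) or the canonical transcript (right). Pdk4 is barely visible with PBS and takes 17.4% to 40.1% of the bar with LDL on the left and 9.59% to 24.0% on the right.

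The phosphatase genes differed from each other in level and in direction. Pdp2 (chr8:105318052-105325671, plus strand), whose product is the phosphatase known from liver and fat, was the more abundant at 343 normalized counts per kb with PBS, against 22.1 for Pdp1. Pdp2 had 1936, 2105 and 1935 normalized counts with PBS and 1698, 1783 and 1496 with LDL. Each LDL value lay below each PBS value, a pattern that 12.3% of all genes tested showed. The log2 fold change of Pdp2 was -0.27 (SE 0.10, 95% interval -0.49 to -0.04, adjusted p = 0.187, limma), with an adjusted p of 0.0531 when the mouse was a block.

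Pdp1 (chr4:11957712-11966468, minus strand), the calcium-stimulated phosphatase, had 154, 98.2 and 112 normalized counts with PBS and 268, 126 and 168 with LDL. It was higher with LDL in 3 of 3 mice, by ratios of 1.74, 1.29 and 1.51, while the treatments overlapped across mice. The log2 fold change was 0.58 (SE 0.29, 95% interval -0.10 to 1.26) with an adjusted p = 0.325 in limma. With the mouse as a block the adjusted p was 0.0336 and the change stayed just short of the 1.5-fold threshold, at a log2 value of 0.585. Pdp1 was called higher by edgeR with that block (log2 fold change 0.62, adjusted p = 0.0262). Without the LDL-treated library of mouse 1, which stood apart, the log2 fold change was 0.29 (adjusted p = 0.645, limma). No annotated gene overlaps Pdp1. The share of Pdp1 in the summed phosphatase level per kb was 6.08% ± 1.56 with PBS and 10.6% ± 3.68 with LDL (SD, n = 3).

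The ratio of the summed phosphatase level to the summed kinase level was 1.01, 0.805 and 0.841 with PBS and 0.820, 0.501 and 0.769 with LDL in mice 1, 2 and 3. By merged exons it was lower with LDL within each mouse, and the treatments overlapped across mice, with means of 0.884 ± 0.107 and 0.697 ± 0.172 (SD, n = 3). The size of this ratio and its direction within mice hung on the lengths used. Canonical transcripts gave means of 0.430 with PBS and 0.407 with LDL, with the ratio higher with LDL in mice 1 and 3 and lower in mouse 2. Without division by length, the direction in each mouse was the same as by canonical transcripts. These are transcript ratios and do not measure the activity of either enzyme class.

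All 4 subunit genes had lower fitted levels with LDL, as did 9670 of the 18459 genes tested, and none was called. Pdha1 (chrX:158904237-158921426, minus strand), which encodes the E1 alpha subunit that the kinases phosphorylate, had 6507, 7484 and 6564 normalized counts with PBS and 4620, 6049 and 4713 with LDL. Each LDL value lay below each PBS value, as in 12.3% of all genes tested. The mean was 6852 ± 549 with PBS and 5128 ± 800 with LDL (SD, n = 3), and the log2 fold change was -0.43 (SE 0.13, 95% interval -0.72 to -0.13, adjusted p = 0.131, limma). With the mouse as a block the adjusted p was 0.0112, at a change under 1.5-fold. The ratios of LDL to PBS within the mice were 0.710, 0.808 and 0.718.

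Pdhb (chr14:14296739-14304802, plus strand), the E1 beta subunit, had 2067, 2147 and 2026 normalized counts with PBS and 1782, 2159 and 1823 with LDL. The values of mouse 2 nearly coincided, and the log2 fold change was -0.12 (SE 0.10, adjusted p = 0.566, limma). Dlat (chr9:50543457-50571277, minus strand), the E2 core, had 1883, 2037 and 2132 normalized counts with PBS and 1436, 2346 and 1856 with LDL. Its log2 fold change was -0.13 (SE 0.17, adjusted p = 0.730, limma), and once mouse 1 with LDL was left out it was 0.05. Pdhx (chr2:102849769-102904060, minus strand), the E3-binding protein, had 1163, 1320 and 1224 normalized counts with PBS and 990, 1213 and 1052 with LDL. It was lower with LDL in 3 of 3 mice at a log2 fold change of -0.19 (SE 0.11, adjusted p = 0.377, limma). The remaining part of the complex, Dld, which also serves the other 2-oxoacid dehydrogenases, differed by a log2 value of -0.12 (SE 0.10, adjusted p = 0.589, limma).

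Ratios between subunit genes within a library do not depend on its size factor. On the per-kb scale Pdha1 over Pdhb was 2.89, 3.20 and 2.97 with PBS and 2.38, 2.57 and 2.37 with LDL in mice 1, 2 and 3. The ratio was lower with LDL in each mouse and did not overlap between treatments, at 3.02 ± 0.160 and 2.44 ± 0.113 (SD, n = 3). Pdha1 alone also lay lower with LDL without overlap, as 12.3% of all genes tested did, and such ratios were not compared over other pairs of genes. Dlat over Pdhb was 0.326 in both treatments, with SDs of 0.0246 for PBS and 0.0492 for LDL. Pdhx over Pdhb was 0.393 ± 0.0182 with PBS and 0.374 ± 0.00725 with LDL, with overlap. Each of Pdk2, Pdk3, Pdp2, Pdha1, Pdhb, Dlat and Pdhx overlaps a gene annotated on the opposite strand, and the strand setting of the counting is not given in the sources used here. Map3k15 overlaps Pdha1 at a mean of 198 normalized counts (log2 fold change -0.08, adjusted p = 0.855, limma), and Pxk overlaps Pdhb at a mean of 933 (log2 fold change -0.12, adjusted p = 0.516, limma).

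**Figure D3:**
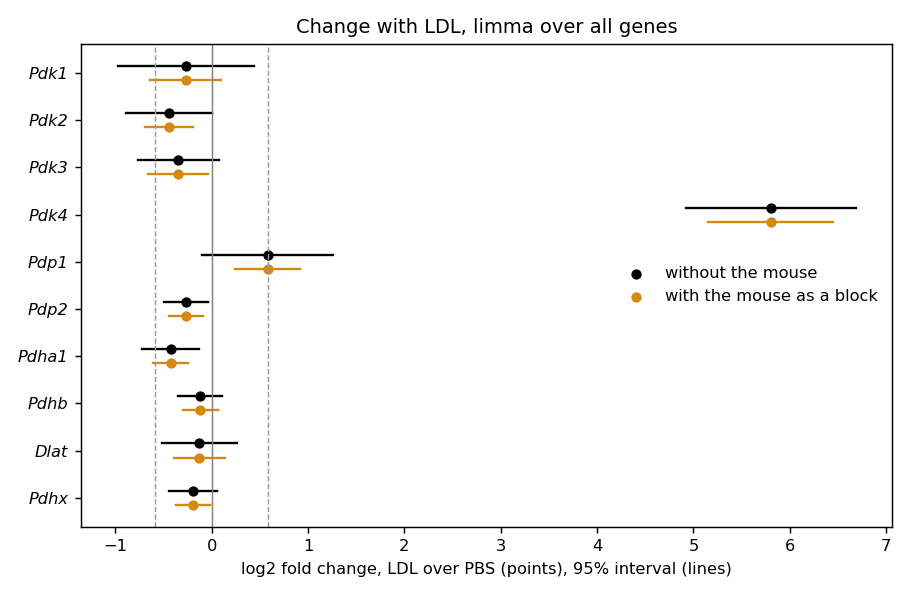
Log2 fold change of LDL over PBS (x axis) for the 10 genes, as points with 95% intervals, from limma without and with the mouse as a block. Pdk4 lies at 5.80 and the others between -0.45 and 0.58, with narrower intervals under the block.

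The members also differed between mice. In 7 of the 10 genes (Pdk1, Pdk2, Pdk3, Pdp2, Pdha1, Pdhb and Pdhx) mouse 2 had the highest value both with LDL and with PBS, against 19.7% of all genes tested. Pdp1 showed the opposite order, with mouse 2 lowest in both treatments (16.4% of all genes). Pdp1 and Pdk4 were highest in mouse 1 in both treatments (19.8% of all genes), although for Pdk4 with PBS mice 1 and 3 differed by less than counting error, at 10 and 12 reads.

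Around the complex, 7 lists with 64 genes covered its other parts, the supply and other fates of pyruvate, citrate, lipoic acid, thiamine, the related 2-oxoacid dehydrogenases and transcription factors known to act on Pdk genes. Of the 62 genes tested 1 was called higher and 2 were called lower by limma, and with the mouse as a block 4 were called higher and 7 lower, against the shares of all genes of 0.878% and 0.395% without the block and 5.68% and 3.46% with it. The median log2 fold change over the 62 genes was -0.13, against -0.02 over all genes. Each LDL value lay above each PBS value in 4 of the 62 genes, against 11.9% of all genes, and below in 14 of them, against 12.3%.

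The genes called by limma without the block were Me1, Gpt2 and Dbt. Me1, the cytosolic malic enzyme that makes pyruvate and NADPH from malate, had 953, 897 and 898 normalized counts with PBS and 3614, 3820 and 3453 with LDL (log2 fold change 1.98, SE 0.08, adjusted p = 2.78e-04, limma). Gpt2, the mitochondrial alanine transaminase that interconverts pyruvate and alanine, had 587, 496 and 462 with PBS and 151, 216 and 160 with LDL (-1.56, SE 0.17, adjusted p = 0.0104, limma). Dbt, the E2 core of the branched-chain 2-oxoacid dehydrogenase, had 1086, 1305 and 1126 with PBS and 711, 703 and 697 with LDL (-0.73, SE 0.10, adjusted p = 0.0201, limma). In each of these genes the treatments were apart in every library. Leaving out 1 library or 1 mouse gave 0 to 9 list genes lower, with 0 when LDL replicate 3, PBS replicate 1, PBS replicate 2, mouse 1 or mouse 3 was left out and 1 when PBS replicate 3 was.

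Limma with the block called a further 8 genes, of which DESeq2 without the block called all but Slc16a3. The mitochondrial pyruvate carrier subunit Mpc1 had 847, 1107 and 837 normalized counts with PBS and 503, 712 and 530 with LDL. Its log2 fold change was -0.68 (adjusted p = 0.0946 without and 0.00217 with the block, limma). For its partner Mpc2 the log2 fold change was -0.32 (adjusted p = 0.443 without and 0.0536 with the block, limma). The lactate exporter gene Slc16a3 had 108, 378 and 178 normalized counts with PBS and 210, 739 and 258 with LDL, about 2-fold apart between treatments in mice 1 and 2 and highest in mouse 2 in both (log2 fold change 0.81, adjusted p = 0.00618 with the block, limma). The rest of these 8 genes were Me2 (mitochondrial malic enzyme, -0.73), Acss1 (mitochondrial acetyl-CoA synthetase, -0.67), Ppm1k (the phosphatase of the branched-chain dehydrogenase, -0.74), Slc44a4 (a transporter of thiamine pyrophosphate, 0.62), Ppard (a nuclear receptor for fatty acids, 0.76) and Esrrg (an orphan nuclear receptor, -1.60).

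Several enzymes at the branch points of pyruvate were not called by limma with or without the block. The log2 fold change was 0.04 for Ldha (lactate dehydrogenase), 0.15 for Pcx (pyruvate carboxylase), -0.11 for Cs (citrate synthase) and -0.17 for Pdpr, the regulatory partner of the phosphatase, with adjusted p-values of 0.957, 0.712, 0.686 and 0.492 in limma. Uncalled genes of the same list reached 0.71 (Ldhb, a lactate dehydrogenase) and -0.56 (Me3, a malic enzyme). The 13 genes of lipoic acid assembly, which supply the cofactor of E2, had a median of -0.11, and 0 were called by limma with or without the block, by DESeq2 without it, or at an unadjusted p under 0.05 with more than 1.5-fold. All 6 genes for the use of acetyl-CoA as citrate had lower fitted levels, as did 9670 of the 18459 genes tested, with a median of -0.29. Limma called 0 of them without the block, while Acss1 passed with the block, in DESeq2 and at an unadjusted p under 0.05. The 16 genes of pyruvate supply and its other fates had a median of 0.06, with 11 higher and 5 lower. The median was -0.12 for the 4 tested genes of thiamine uptake and activation, -0.18 for the 9 of the related 2-oxoacid dehydrogenases and -0.13 for the 12 transcription factors. Pdha2, the testis form of E1 alpha, had no read in any library, and the thiamine transporter gene Slc19a3 was too low to be tested.

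Of the nuclear receptors that act on Pdk4 in other tissues, Ppara and Pparg had log2 fold changes of 0.05 and -0.01 (adjusted p = 0.931 and 0.961, limma). Ppard had 615, 440 and 551 normalized counts with PBS and 1220, 568 and 1048 with LDL, higher in 3 of 3 mice but with overlap across mice (adjusted p = 0.183 without and 0.00777 with the block, limma). Esrrg had 1257, 1465 and 1161 with PBS and 288, 789 and 336 with LDL, and its groups did not overlap (adjusted p = 0.0680 without and 0.00264 with the block, limma).

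**Figure D4:**
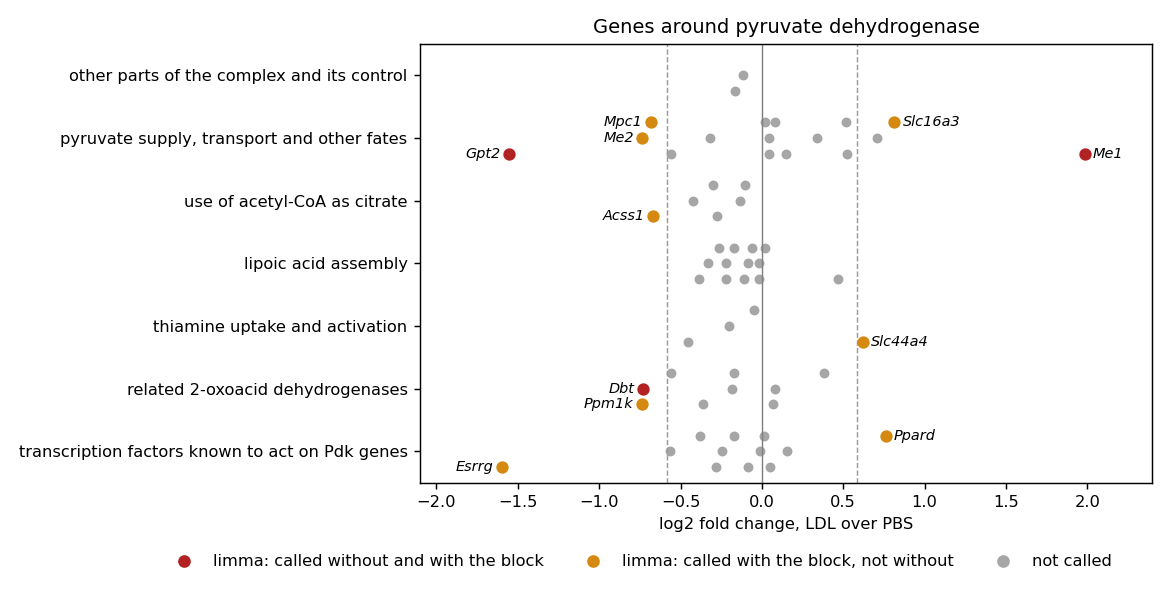
Log2 fold change of LDL over PBS (x axis) for the 62 tested genes of the 7 lists (y axis), 1 point per gene, with dashed lines at 1.5-fold. Me1 at 1.98, Gpt2 at -1.56 and Dbt at -0.73 were called without and with the mouse as a block, the other named genes by limma with the block and not without it.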

How the data were processed

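RNA-Seq libraries of 6 organoid cultures were analyzed from the deposited table. Per the paper's methods and the submitters' processing notes, the authors prepared stranded, ribosome-depleted libraries, demultiplexed with bcl2fastq 2.20, aligned with STAR to GRCm39, counted with featureCounts and ran DESeq2. The strand setting and the annotation used are not given in the sources used here. The deposited values (unit: signal) are normalized counts, meaning reads on a gene divided by 1 size factor per library. Whole reads were recovered for 100% of values (tolerance 0.001 reads). Of 55416 identifiers, 54749 were found in the GENCODE annotation of GRCm39, which gave names, positions and lengths, and 667 were not. A total of 12377 genes had no read.

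LDL and PBS were compared with limma 3.58.1 (R 4.3.3, eBayes with a trend, two-sided) on log2(normalized count + 1) for 18459 genes whose mean reached 10, with Benjamini-Hochberg adjustment over all of them. This scale understates changes of low genes. The mouse was no term of this model, because no pairing term is stated, and was a block in an alternative. Libraries of a replicate number share an animal in the labels, and after group means were removed they correlated across genes at r = 0.484, 0.421 and 0.462. For LDL and PBS libraries of different mice r lay between -0.368 and -0.0809. The p-values without the block leave this pairing out. Alternatives were other pseudocounts, filters, scalings and thresholds, DESeq2 1.42.0 and edgeR 4.0.16 on the recovered reads, and libraries or mice left out. The fit was tested on simulated data. Ratios within a mouse carry exact 95% intervals from reads. Figures were drawn with matplotlib 3.10.9.

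The members and the hand-written lists were chosen with earlier results of these data known. The genes named were all members, Dld, Pdpr, Mpc1, Mpc2, Cs, Ldha, Pcx, Ppara, Ppard, Pparg, every list gene called without or with the block, and the 5 genes most like Pdk4. Rn18s-rs5, Pdha2, Slc19a3, Ldhb, Me3, the named markers and the overlapping genes were named after their values were seen. The 11 marker lists (52 genes) were also written by hand.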

Additional observations from a re-analysis of the deposited data

How the results depend on the processing

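Over the 230 fits of the 10 members under other settings, 222 kept their direction and their side of the threshold. Pdk4 was called in 22 of 23 alternatives, with adjusted p-values of 6.00e-53 to 0.174, the highest without mouse 3. Members called higher numbered 2 with edgeR and the replicate block (Pdk4 and Pdp1), 2 with the block but without replicate 2, and 0 to 2 over all settings that left out a library or a mouse. Members called lower ranged from 0 to 2 in those settings. The cause of these differences was not tested. The log2 fold change of Dlat, -0.30 to 0.05 over those settings, turned to 0.051 without LDL replicate 1 and to 0.0021 without replicate 1, with and without the block. The median log2 fold change of all genes moved from -0.02 to 0.10 without the filter on the mean.

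Of the list genes, 2 were called higher and 6 lower without a filter, 4 and 7 with the replicate block, 3 and 7 with DESeq2, 4 and 7 with DESeq2 and the block, 4 and 7 with edgeR and the block, and 3 and 7 at an unadjusted p under 0.05. Over settings that left out a library or a mouse they ranged from 0 to 4 higher and 0 to 9 lower, and with the block without a mouse from 2 to 5 higher and 1 to 10 lower. Over all genes, where limma called 162 higher and 73 lower, 506 and 245 were called without a filter, 1048 and 639 with the block, 846 and 348 with DESeq2, 981 and 511 with DESeq2 and the block, 1171 and 588 with edgeR and the block, and 1170 and 776 at an unadjusted p under 0.05. Leaving out a library or a mouse without the block gave 0 to 1194 higher and 0 to 1137 lower, the lowest without mouse 3 and the highest without the LDL-treated library of mouse 2. With the block, 719 and 326 were called without mouse 1, 1634 and 1333 without mouse 2, and 277 and 82 without mouse 3. Fewer libraries also leave fewer degrees of freedom.

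Without division by length the share of Pdk4 was 14.6% with LDL and 0.229% with PBS, and by canonical transcripts it was 15.9% with LDL. The phosphatase to kinase ratio was 0.482 with LDL and 0.538 with PBS by the longest transcripts, 0.407 and 0.430 by canonical transcripts, and 0.554 and 0.589 without division by length. Canonical lengths and the block without a mouse were chosen after seeing the data. With 3 to 12 reads of Pdk4 per PBS library, depth limits its fold change more than its direction.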

Other observations

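The 5 genes most like Pdk4, by Pearson correlation of log2(normalized count + 1) over the 6 libraries among 11938 genes with a mean of at least 100, were Gm7049 (r = 0.998), Ms4a18 (0.995), Actg1 (0.995), Kifc3 (0.993) and Plcg2 (0.992). The libraries share mice and treatments, and these values describe the 6 libraries alone. Because Pdk4 differs mainly between the treatments, this choice favors genes that do so too, and the log2 fold changes were 2.10 for Gm7049, 1.64 for Ms4a18, 2.14 for Kifc3, 0.68 for Plcg2 and 0.29 for Actg1, the gene of cytoplasmic gamma actin. Among the members, r with Pdk4 was lowest for Pdha1 (-0.87) and Pdp2 (-0.84) and highest for Pdp1 (0.69).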
